A study of Drosophila melanogaster with 62 samples.

Results

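The proteasome genes were taken as every gene of the deposited table whose name follows the proteasome naming pattern (Prosalpha, Prosbeta, Pros with a digit, ProsMA, Rpn with a digit, Rpt with a digit) together with Tbp-1, the name the table uses for the ATPase Rpt5. The pattern took 42 of 14659 genes. Of these, 29 encode constitutive subunits: 7 of the alpha ring, 6 of the beta ring, 6 ATPases and 10 non-ATPase subunits of the base and lid. The other 13 are paralogs with their own genes, such as Prosalpha6T and Rpt3R. Older names were kept as the table gives them: Pros25, Pros29, Pros28_1 and Pros35 are the alpha2, alpha3, alpha4 and alpha6 subunits, Pros26 is beta6, Pros26_4 is Rpt2, Pros45 is Rpt6 and Pros54 is Rpn10. Further subunit genes that carry other names, among them CG17331 (Prosbeta4 in RefSeq), Mov34 (Rpn8), CG13349 (Rpn13) and CG13779 (Sem1), lie outside the pattern and were described apart.

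The 26S proteasome degrades proteins that have been marked with ubiquitin chains. Its 20S core is a barrel of stacked rings in which the outer alpha rings gate entry and the inner beta rings carry the proteolytic sites, on Prosbeta1 (caspase-like), Prosbeta2 (trypsin-like) and Prosbeta5 (chymotrypsin-like). The 19S regulatory particle binds the substrate through ubiquitin receptors such as Pros54, removes the chain with the deubiquitinase Rpn11 and unfolds and feeds in the protein with the ring of Rpt ATPases. In flies, several subunits have copies expressed in the male germ line. The larval fat body is the main store of fat, glycogen and storage proteins.

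Fat bodies came from wandering third-instar Drosophila melanogaster larvae, and all larvae carried UAS-Dcr2 on the X chromosome, a transgene that strengthens RNAi, and a fat body GAL4 driver, cg-GAL4 or r4-GAL4. The cg-GAL4 males, whose fat bodies were dissected, were offspring of the VDRC stock w1118 (controls) or 12580 (Tfb1 RNAi), raised on 0.15 M or 1.0 M sucrose, 3 libraries per group. The cg-GAL4 females were w1118 controls at 0.15 M and 0.7 M, and the r4-GAL4 w1118 females were controls at 0.15 M, 0.3 M, 0.7 M and 1.0 M, again with 3 libraries each. A further set of r4-GAL4 females, called r4 60100 females after their control stock, held controls and offspring of the stocks 106097 (FOXO RNAi), 103001 (p53 RNAi) and 106980 (Stat92E RNAi) at 0.15 M and 0.7 M. These groups had 4 libraries each, except 3 for p53 RNAi at 0.15 M. Each factor was targeted by a single RNAi line, and all female fat bodies were floated, that is sheared and separated by centrifugation. The series was made to show how diet and the knockdown of transcription factors alter fat body expression.

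Values are FPKM (fragments mapped to a gene, set per transcript length and sequencing depth) that had been scaled in each library so that a gene of a fixed rank has the value 1; 2081 to 2083 genes reached 1 in cg females, 2117 to 2119 in r4 w1118 females, 2464 to 2468 in r4 60100 females and 2649 to 2652 in cg males. Levels are therefore relative within an experiment, no read counts or depths were given, and no counting intervals were made. The fat body markers (5 larval serum protein and related genes) summed to between 1190 and 11500 in every group. The targeted genes were lower on average in their own RNAi than in controls at each diet: Stat92E was 2.68 ± 1.1 in controls and 0.443 ± 0.15 in Stat92E RNAi at 0.15 M (SD, n = 4 each), while foxo, p53 and Tfb1 means lay under 1 in controls as well as in RNAi. Markers of other tissues were present in varying amounts, and those called are given beside the comparisons in which they moved. In these bulk samples, fewer cells of a type and less RNA per cell cannot be told apart.

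All 29 constitutive subunits passed the expression filter (a mean of at least 1) in all 4 experiments. Their median level was 4.12 in cg females, 5.35 in r4 w1118 females, 3.8 in cg males and 9.56 in r4 60100 females. These sets were scaled apart and also differ in driver, stock or sex, so scaling and genotype cannot be told apart here. Pros25, the alpha2 subunit, had the highest mean in cg females (7.72), cg males (10.2) and r4 w1118 females (10.5), and Prosbeta5, the chymotrypsin-like subunit, had the highest mean in r4 60100 females (19.5). In r4 60100 females it was followed by Prosbeta7 at 15.3, Pros29 at 14.6 and Pros35 at 14.3, and the steps between these 3 are smaller than the spread between libraries. The lowest means belonged to the base subunit Rpn2 in cg males (1.29), to Prosbeta3 in r4 w1118 females (2.32) and to the ATPase Tbp-1 in cg females (1.84) and r4 60100 females (2.27). The order of the 29 levels was alike only in part between experiments, with Spearman's rho across subunits from 0.52 to 0.82. It was lowest between r4 60100 females and either cg set, and highest between cg females and r4 w1118 females. Rpn6 ranked 2 in cg females and 24 in r4 60100 females. These values of rho are a description, since subunits share libraries and transcript lengths.

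**Figure D1:**
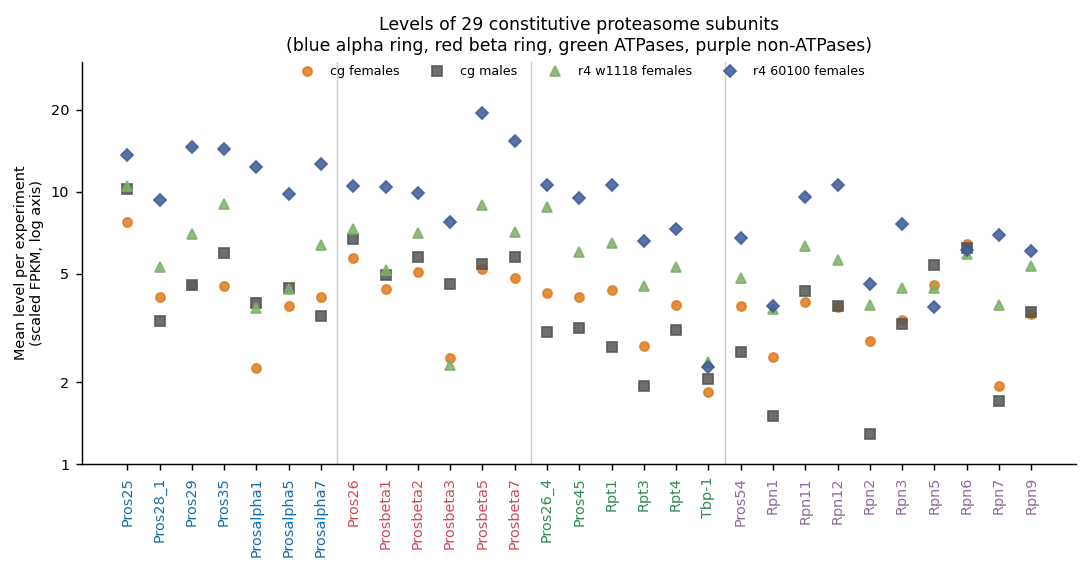
Mean level of each of the 29 constitutive subunits (scaled FPKM, log axis) in each experiment, by subunit class; each point is the mean over all libraries of an experiment. Levels span 2.27 to 19.5 in r4 60100 females and 1.84 to 7.72 in cg females, and the sets of points are scaled apart.

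Within groups, the median SD of a subunit on the log2 scale (log2 of scaled FPKM plus 1) was 0.15 in cg females, 0.17 in cg males, 0.16 in r4 w1118 females and 0.15 in r4 60100 females. Tbp-1 was the most variable subunit in r4 w1118 females (SD 0.53) and in r4 60100 females (SD 0.47), where its 4 control libraries at 0.15 M read 1.25, 3.42, 3.47 and 3.82. The subunits varied together within groups. After each group's mean was subtracted, a subunit's correlation with the mean of the others was taken over all libraries of an experiment. The median r was 0.64 in cg females (6 libraries), 0.56 in cg males (12), 0.7 in r4 w1118 females (12) and 0.66 in r4 60100 females (31). These values are a description that includes the shared scaling and leaves out the differences between groups. In r4 60100 females the lowest were the lid subunits Rpn6 (r = -0.4) and Rpn5 (r = -0.06), the base subunits Rpn2 (r = -0.02) and Rpn1 (r = 0.16) and the ATPase Tbp-1 (r = 0.0). In the Ensembl annotation, exons of 12 of the 29 subunits overlap a gene on the other strand, for at most 15.7% of their length (Rpn9), and whether reads were counted by strand is not given in the sources used here. Prosalpha1 has a copy in the genome, CG30382 (Prosalpha1R in RefSeq), so how reads were split between these genes is uncertain.

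The 13 paralogs, copies of core, ATPase and lid subunits, were measured almost only in males. In the 12 male libraries all 13 were above 0 in some library and 5 of them in every library. The second Tfb1 RNAi library at 0.15 M had the fewest paralogs above 0 (6) and the fewest genes above 0 of the male libraries (6662). Rpn12R, a copy of the lid subunit Rpn12, was the highest, with a lowest value of 0.6, a median of 0.969 and a highest of 1.57. Rpt6R ranged from 0.441 to 0.918 around a median of 0.67, and Rpt3R from 0.385 to 0.863 around 0.531. In the 49 female libraries, 9 of the 13 were listed at 0 throughout and no value exceeded 0.204. None of the 13 reached the filter in any experiment, so none was tested.

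Summed per library, the paralogs gave 3.14 to 7.55 in males, spread over all 4 male groups, and at most 0.41 in any female library. A list of 18 testis genes, chosen after the paralogs' values were seen, was also present in the male libraries: all 18 were above 0 in some, 9 were above 0 in all 12, and their sum was 19.5 to 40.8. In females the sum was 0 to 1.56, and 8 of the 18 were listed at 0 in all libraries. The list was not uniform. In females topi was above 0 in 44 of 49 libraries, with a mean of 0.173 beside 0.0829 in males. Mst87F was above 0 in 36 of the 49, with a mean of 0.419 beside 5.26 in males. In the 12 male libraries tomb was above 0 in 1 and vas in 2. The part of testis tissue in the paralogs' values was not tested, and sex and the way the fat body was isolated cannot be told apart here, since all males were dissected and all females floated.

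**Figure D2:**
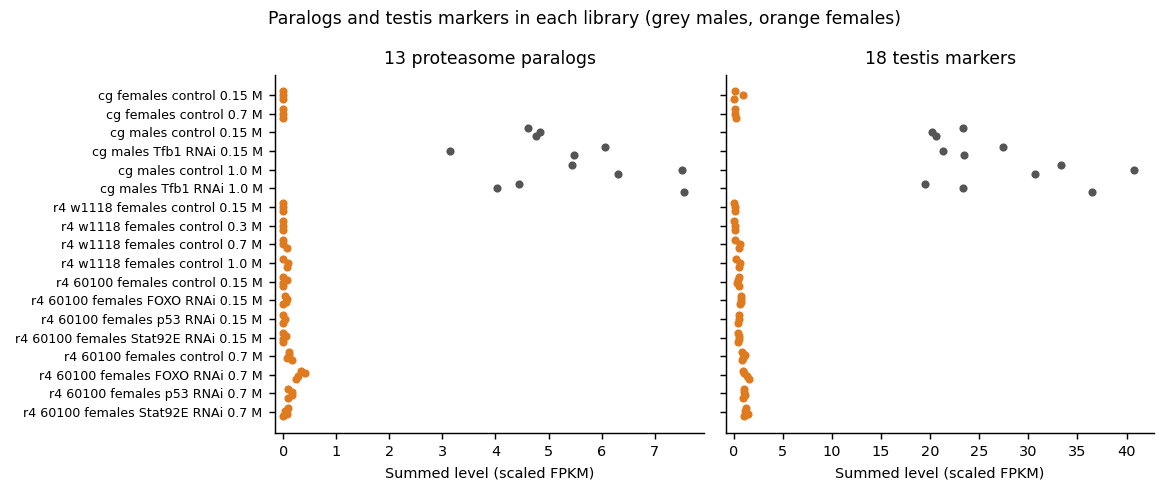
Summed level (scaled FPKM) of the 13 proteasome paralogs (left) and of 18 testis markers (right) in each library, by group; each point is a library, males in grey and females in orange. Male sums are 3.14 to 7.55 on the left and 19.5 to 40.8 on the right, above all female sums in both panels.

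In r4 60100 control females, 16 of the 29 subunits rose at 0.7 M against 0.15 M sucrose and none fell (limma, adjusted p under 0.05 over all genes tested), where 18.7% of all 2521 genes tested rose and 12.4% fell. The median change was 0.37 on the log2 scale, beside 0.11 for all genes, and 23 of the 29 estimates were above 0. In 12 of the 29 all libraries at 0.7 M lay above all at 0.15 M, which held for 16.1% of all genes. By class, 6 of 7 alpha subunits rose, 3 of 6 beta subunits, 4 of 6 ATPases and 3 of 10 non-ATPase subunits. The median transcript lengths of these classes were, in the same order, 0.97, 0.99, 1.53 and 1.7 kb. The part of transcript length in this split was not tested. That subunits rose in this comparison was known when the genes were chosen, so the count is a description.

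Prosalpha1, an alpha ring subunit, measured 8.27, 7.12, 7.89 and 9.38 at 0.15 M and 13.5, 16, 14 and 11.4 at 0.7 M. The groups did not overlap, and the change was 0.68 ± 0.14 (log2, SE; limma adjusted p = 0.0012). Prosbeta3, a non-catalytic beta subunit, measured 5.37, 4.8, 4.58 and 6.36 at 0.15 M and 10.3, 8.36, 7 and 10.5 at 0.7 M, a change of 0.67 ± 0.22 (limma adjusted p = 0.02). All its values at 0.7 M lay above those at 0.15 M. Pros28_1, the alpha4 subunit, went from 6.38, 4.86, 6.58 and 6.57 to 8.45, 13.4, 9.45 and 6.97, a change of 0.55 ± 0.15 (limma adjusted p = 0.0079), again with no overlap.

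The catalytic subunits differed in their estimates. Prosbeta5 measured 13.1, 10.7, 11.8 and 16.5 at 0.15 M and 18.3, 25.6, 19.6 and 16 at 0.7 M and rose by 0.57 ± 0.14 (limma adjusted p = 0.0051), with 1 library of each diet overlapping the other. Prosbeta1 measured 7.7, 6.74, 9.99 and 10.4 and 10, 9.13, 12.4 and 8.74, an estimate of 0.2 that did not pass (limma adjusted p = 0.35). Prosbeta2 measured 9.08, 8.48, 8.66 and 11.7 and 9.45, 8.45, 8.83 and 10.1, an estimate of -0.03 (limma adjusted p = 0.83). The difference between these subunits was not itself tested.

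In the regulatory particle the ATPase Rpt3 rose by 0.48 ± 0.1 (limma adjusted p = 0.0015), as did Pros26_4, Rpt1 and Pros45, and Tbp-1, with means of 2.99 at 0.15 M and 1.6 at 0.7 M, had an estimate of -0.61 ± 0.32 that did not pass (limma adjusted p = 0.14). Of the non-ATPase subunits, Rpn7, Rpn12 and the deubiquitinase Rpn11 rose. Rpn11 measured 7.93, 6.18, 7.05 and 9.83 at 0.15 M and 10.2, 9.74, 10.1 and 9.46 at 0.7 M, a change of 0.33 ± 0.1 (limma adjusted p = 0.015), with the highest control-diet library inside the range of the other diet. The large base subunits Rpn1 and Rpn2 and the lid subunits Rpn5, Rpn6 and Rpn9 had estimates between -0.17 and 0.07, none past the threshold. On the deposited scale the 29 subunits made up 0.329% to 0.363% of the summed values at 0.15 M and 0.411% to 0.419% at 0.7 M. This share did not follow the calls in every comparison. It was 0.538% to 0.618% in FOXO RNAi at 0.7 M, where no subunit was called against these controls. In cg control females it was 0.314% to 0.369% at 0.15 M and 0.289% to 0.307% at 0.7 M, although 25 of 29 estimates there were above 0.

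Other tissues' markers also moved with this diet: the sum of 10 muscle markers went from 12.7 to 20.4 at 0.15 M to 24.1 to 73.5 at 0.7 M, with 7 of 8 tested called higher, while the fat body markers went from 11000 to 11500 to 6870 to 10600, with 3 of 5 called lower. Of the 9 gut markers tested, 3 were called higher. Their part in the result was not tested. Leaving out any 1 library left 14 to 20 subunits called, and rescaling each library by its median ratio gave 21. That rescaling also changed the balance of all genes called from 471 higher and 313 lower to 677 higher and 208 lower.

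**Figure D3:**
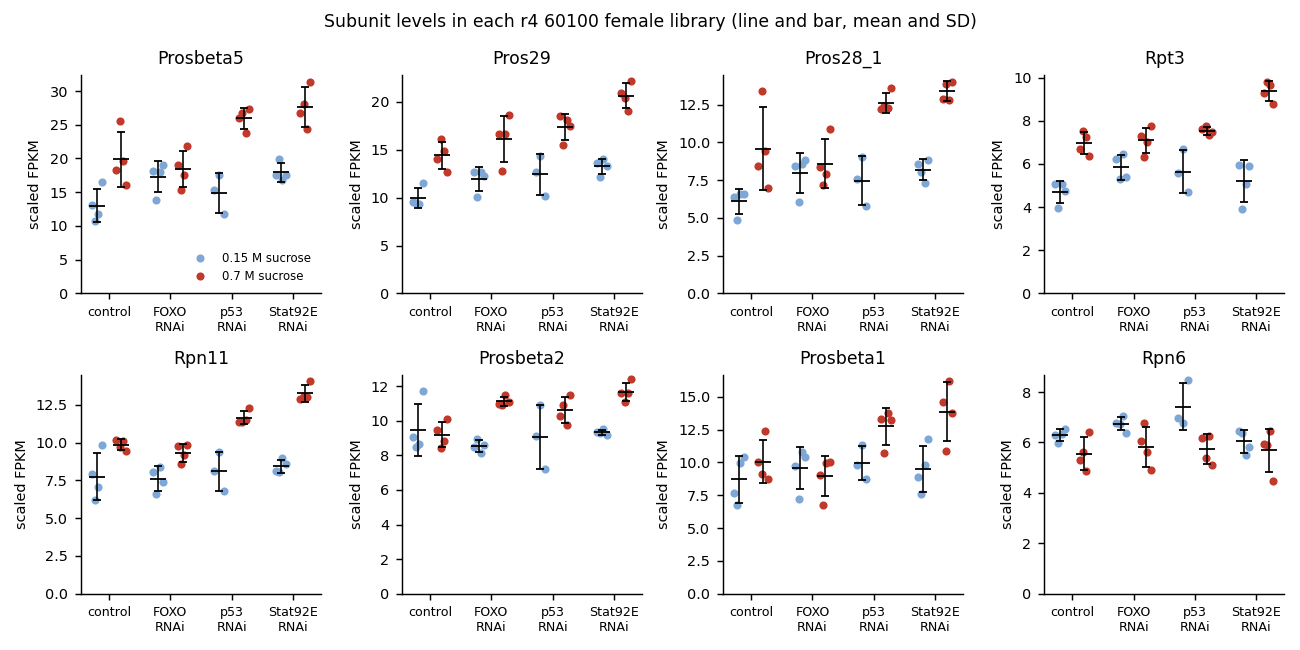
Level (scaled FPKM) of 8 subunits in each r4 60100 female library, at 0.15 M (blue) and 0.7 M sucrose (red), for controls and each RNAi; line and bar give the mean and SD of 3 or 4 libraries. Prosbeta5, Pros29 and Rpt3 are highest in Stat92E RNAi at 0.7 M, while Rpn6 stays between 4.46 and 8.48 in all groups.

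In r4 w1118 control females, raised on 4 sucrose concentrations, 7 of 29 subunits rose at 0.7 M against 0.15 M and none fell, where 11.3% of 2177 genes tested rose and 2.94% fell (limma). All 29 estimates were above 0, with a median of 0.34 beside 0.15 for all genes tested, and 13 subunits lay wholly above 0.15 M, as did 30.3% of all genes. The called subunits were the alpha ring members Prosalpha5, Pros28_1 and Prosalpha7, the ATPases Rpt3, Pros26_4 and Pros45, and the lid subunit Rpn6. Of these, 6 were among the 16 called in r4 60100 females (Rpn6 was not called there), that is 85.7% of the 7 and 37.5% of the 16. These experiments share no library. Since 16 of the 29 were called there, part of this overlap follows from number alone, and the overlap was not tested.

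Prosalpha5 measured 3.49, 2.1 and 3.78 on 0.15 M sucrose, 4.16, 4.65 and 5.4 on 0.3 M, 6.3, 5.69 and 6.34 on 0.7 M and 2.65, 3.64 and 4.42 on 1.0 M. Its values at 0.7 M lay above all others, and the change from 0.15 M was 0.81 ± 0.19 (limma adjusted p = 0.018). Pros28_1 was also highest there, with 5, 2.66 and 4.39 on 0.15 M sucrose, 4.29, 5.81 and 5.19 on 0.3 M, 7.16, 7 and 8.21 on 0.7 M and 3.98, 4.96 and 5.11 on 1.0 M, and a change of 0.78 ± 0.18 at 0.7 M (limma adjusted p = 0.019). Rpt3 measured 3.74, 2.95 and 3.74 at 0.15 M and 5.23, 5.19 and 6.45 at 0.7 M, a change of 0.57 ± 0.12 (limma adjusted p = 0.013). Prosalpha7 rose by 0.55 ± 0.15 (limma adjusted p = 0.034), from 5.89, 3.88 and 5.68 to 7.22, 7.95 and 8.52. For each of these subunits the second library at 0.15 M was the lowest.

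At 1.0 M only Pros26, the beta6 subunit, passed (12.6% of all genes rose and 4.64% fell), although 28 of 29 estimates were above 0 with a median of 0.32, beside 0.08 for all genes. In 17 subunits all 1.0 M libraries lay above all 0.15 M libraries, as in 25.1% of all genes. Pros26 measured 6.31, 5.4 and 7.07 at 0.15 M and 8.69, 9.36 and 8.05 at 1.0 M, a change of 0.42 ± 0.13 (limma adjusted p = 0.045), and the groups did not overlap. At 0.3 M no subunit was called (6.34% of all genes rose and 1.38% fell), and 1 was higher by unadjusted p in limma's test, beside 505 higher and 114 lower of all genes. Gut markers (4 of 8) were called lower there and 1 of 5 muscle markers higher, and their part was not tested. In 2 subunits all 0.3 M libraries lay above all 0.15 M libraries, as in 23.8% of all genes. The smallest p-values there belonged to Prosalpha5, with an estimate of 0.5 (limma adjusted p = 0.12), and to Pros25, with 8.17, 7.2 and 10.5 at 0.15 M and 9.79, 9.86 and 11.7 at 0.3 M (estimate 0.26, limma adjusted p = 0.27).

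A linear trend on the sucrose concentration was called for 3 subunits, all upwards, where 7.95% of all genes rose and 4.23% fell. The slopes, in log2 units per M of sucrose, were 0.5 ± 0.14 for Pros26 (limma adjusted p = 0.035), 0.5 ± 0.15 for the ATPase Rpt4 (limma adjusted p = 0.041) and 0.46 ± 0.13 for the ATPase Rpt1 (limma adjusted p = 0.041). Rpt4 measured 5.21, 3.98 and 5.17 on 0.15 M sucrose, 4.41, 4.48 and 4.44 on 0.3 M, 5.14, 4.88 and 6.04 on 0.7 M and 7.29, 6.18 and 6.3 on 1.0 M. Rpt1 measured 6.07, 4.83 and 6.11 on 0.15 M sucrose, 5.33, 5.58 and 6.13 on 0.3 M, 6.89, 7.43 and 7.29 on 0.7 M and 7.56, 7.54 and 7.07 on 1.0 M, so its 2 lower and 2 higher diets separated completely. All 29 slopes were above 0, with a median of 0.4 beside 0.05 for all genes. Of the tissue markers, 6 of 8 gut, 2 of 5 fat body and 1 of 2 hemocyte markers were called lower in the trend, and their part was not tested.

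Among the catalytic subunits, Prosbeta5 measured 8.11, 4.92 and 8.14 on 0.15 M sucrose, 7.06, 11.7 and 9.02 on 0.3 M, 9.79, 9.21 and 11.8 on 0.7 M and 8.96, 9.42 and 9.29 on 1.0 M. Prosbeta1 measured 4.57, 3.44 and 5.12, then 4.89, 5.13 and 5.67, then 4.64, 5.29 and 7.39, then 6.33, 3.47 and 6.2 in the same order of diets. Prosbeta2 measured 6.52, 5.82 and 7.13 on 0.15 M sucrose, 6.39, 6.21 and 6.2 on 0.3 M, 6.16, 6.71 and 7.97 on 0.7 M and 9.2, 9.13 and 7.37 on 1.0 M. None of these was called at any diet or in the trend. Prosbeta5 lay above all 0.15 M libraries at 0.7 M (estimate 0.51, limma adjusted p = 0.12) and at 1.0 M (estimate 0.37, limma adjusted p = 0.25). Prosbeta2 did so at 1.0 M (estimate 0.35, limma adjusted p = 0.099), and Prosbeta1 overlapped at every diet. Rpn11, with 5.14, 4.2 and 5.48 on 0.15 M sucrose, 6.04, 5.25 and 6.49 on 0.3 M, 5.79, 7.81 and 8.4 on 0.7 M and 6.54, 7.02 and 7.53 on 1.0 M, had estimates of 0.48 at 0.7 M (limma adjusted p = 0.055) and 0.44 at 1.0 M (limma adjusted p = 0.071).

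Calls in this experiment rested on few libraries. At 0.7 M the 7 calls fell to 1 without the second or the third 0.7 M library and to 3 without the second or the third 0.15 M library. The 1 call at 1.0 M was lost without any of 5 of the 6 libraries compared and became 2 calls without the third 0.15 M library. The trend gave 0 calls without the second 0.15 M, the first or the second 0.3 M, the third 0.7 M or any 1.0 M library, and 1 call without the first 0.15 M or the first 0.7 M library. With the dependence of changes on transcript length removed, 2 subunits were called at 0.7 M and none at 1.0 M or in the trend. Gut markers fell over these diets, from a sum of 57.6 to 148 at 0.15 M to 2.7 to 5.03 at 0.7 M and 2.97 to 6.19 at 1.0 M, with 5 of 8 called lower at each. At both diets 2 of 5 fat body markers and 1 of 2 hemocyte markers were also called lower, and 1 of 5 muscle markers was called higher at 0.7 M. Their part in the result was not tested.

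**Figure D4:**
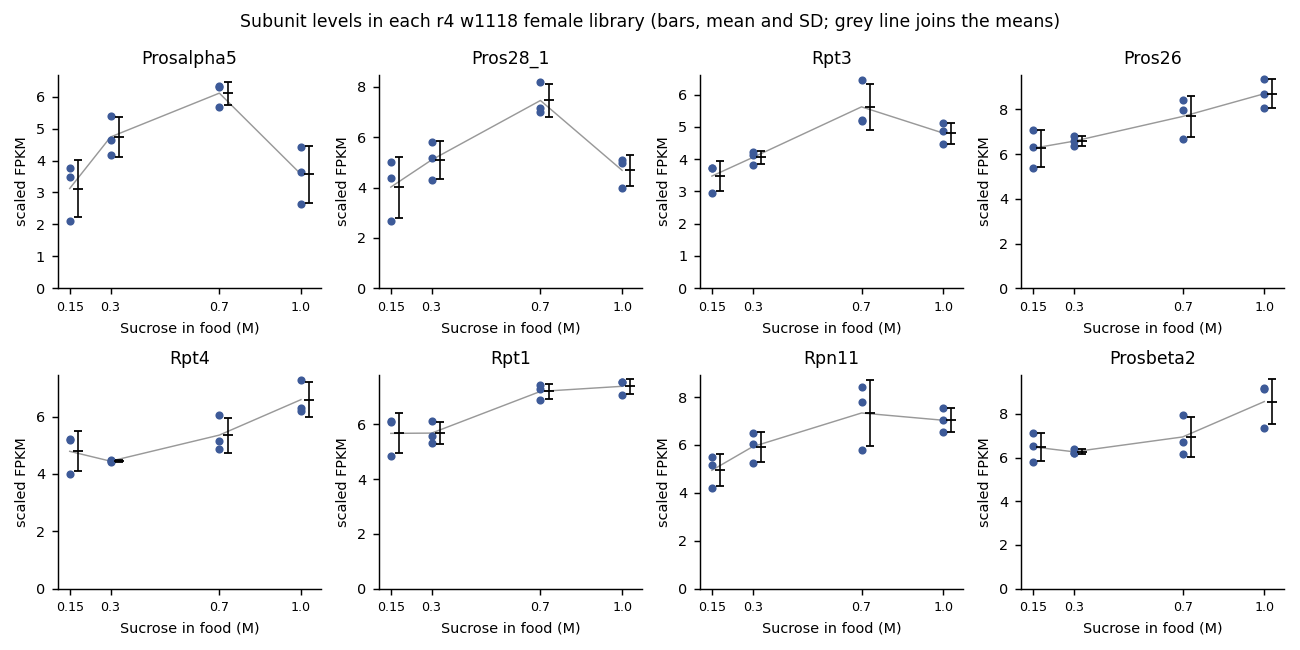
Level (scaled FPKM) of 8 subunits in the r4 w1118 female libraries against the sucrose concentration of the food (M); points are libraries, bars the mean and SD of 3 libraries, and the grey line joins the means. Prosalpha5, Pros28_1 and Rpt3 are highest at 0.7 M, Pros26 and Rpt4 at 1.0 M.

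In cg control females, 2 of 29 subunits rose at 0.7 M against 0.15 M and none fell, where 27.5% of 2131 genes tested rose and 12.3% fell (limma). The median change of 0.16 was close to the 0.15 of all genes, and 25 of 29 estimates were above 0. In 6 subunits the 0.7 M libraries lay wholly above those at 0.15 M, as in 36.5% of all genes. Pros28_1 measured 3.45, 3.8 and 3.25 at 0.15 M and 5.14, 4.91 and 4.19 at 0.7 M, a change of 0.35 ± 0.11 (limma adjusted p = 0.042). Prosbeta7 measured 4.17, 4.14 and 4.23 and 6.16, 5.28 and 5.05, a change of 0.32 ± 0.1 (limma adjusted p = 0.045). Neither overlapped between diets. The calls dropped to 0 without any 1 of 5 libraries, and to 1 without the third 0.7 M library, and they were 0 with no filter, after rescaling by the median ratio and after removing the length dependence.

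Prosbeta5 measured 5.36, 4.54 and 4.85 at 0.15 M and 5.88, 5.44 and 5.11 at 0.7 M, Prosbeta1 4.28, 4.25 and 3.61 and 5.75, 4.16 and 4.37, and Prosbeta2 4.35, 4.36 and 5.25 and 6.92, 4.84 and 4.8. Rpn11 measured 4.1, 3.76 and 3.35 at 0.15 M and 4.45, 4 and 3.91 at 0.7 M. In all 4 the diets overlapped, and the estimates of 0.12 to 0.19 did not pass. Hemocyte markers were lower at 0.7 M (a sum of 0.282 to 0.619, against 8.62 to 12.4), and fat body markers were higher (8830 to 10400, against 3750 to 5110). Gut markers went from 5.34 to 74.5 to 1.76 to 2.26, with 2 of 6 called lower, and salivary gland markers from 33.3 to 591 to 5.41 to 18.5, with 2 of 5 called lower. The 1 muscle marker tested was called lower. Their part in the result was not tested.

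In cg control males no subunit was called at 1.0 M against 0.15 M, where 5.37% of 2698 genes tested rose and 22.9% fell (limma). By unadjusted p under 0.05, none was higher and 2 were lower, beside 299 higher and 838 lower of the 2698 genes. These were Prosalpha5, with 5.35, 4.73 and 4.91 at 0.15 M and 3.86, 2.83 and 4.18 at 1.0 M (estimate -0.39, limma adjusted p = 0.064), and Rpn11, with 5.77, 5.06 and 4.97 and 4.42, 3.5 and 4.48 (estimate -0.29, limma adjusted p = 0.092). Neither overlapped between diets. All 1.0 M libraries lay above all 0.15 M libraries in 2 subunits, beside 13.6% of all genes, and below them in 2 subunits, beside 907 genes. The median change of -0.14 was close to the -0.13 of all genes. Prosbeta5 measured 5.54, 4.36 and 4.7 at 0.15 M and 5.02, 3.75 and 5.46 at 1.0 M, Prosbeta1 5.59, 4.58 and 4.69 and 4.49, 3.32 and 4.81, and Prosbeta2 6.57, 4.94 and 5.33 and 5.94, 5.73 and 5.84, with overlapping groups each. Fat body markers were lower at 1.0 M (a sum of 2290 to 3630, against 8000 to 9670), all 5 of them called. Testis markers were higher (30.7 to 40.8, against 20.2 to 23.3), with 3 of 7 called. Their part in the result was not tested. Without the third 1.0 M library 1 subunit was called. The male and female diets differ in sex, isolation and top concentration, and no test set them against each other.

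Tfb1 encodes a subunit of the general transcription and repair factor TFIIH. Tfb1 RNAi at 0.15 M raised 2 subunits and lowered none, where 10.4% of genes rose and 25.8% fell (limma). Rpn2, the large scaffold of the base, measured 1.14, 0.84 and 0.875 in controls and 1.67, 1.86 and 1.6 in Tfb1 RNAi, a change of 0.48 ± 0.11 (limma adjusted p = 0.0053). Prosbeta7 measured 6.16, 4.21 and 5.37 and 7.65, 7.29 and 6.81, a change of 0.41 ± 0.12 (limma adjusted p = 0.025). Both separated completely from controls, as did 2 further subunits upwards (15.2% of all genes did). Another 2 subunits lay wholly below controls, beside 942 of 2698 genes. The calls dropped to 1 without the second control library or without the first or the second Tfb1 RNAi library. The count was 6 with the length dependence removed and 4 after rescaling, of which 1 was lower. Prosbeta5 in Tfb1 RNAi measured 6.49, 6.7 and 6.38 (estimate 0.36, limma adjusted p = 0.055), and Rpn11 measured 4.33, 3.97 and 3.95 (estimate -0.3, limma adjusted p = 0.076).

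At 1.0 M no subunit was called in Tfb1 RNAi (12.2% of genes rose and 11.9% fell), with 1 higher and 1 lower by unadjusted p in limma's test, beside 466 and 537 of all genes. In 3 subunits all RNAi libraries lay above all controls, as in 18.7% of all genes, and in 2 they lay below, beside 502 of 2698 genes. Rpn1, a ubiquitin-binding base subunit, measured 1.52, 0.811 and 1.22 in controls and 1.8, 1.78 and 1.75 in Tfb1 RNAi (estimate 0.36, limma adjusted p = 0.063). Rpn5, a lid subunit, measured 5.85, 5.89 and 5.84 and 5.58, 4.68 and 4.07 (estimate -0.26, limma adjusted p = 0.12). Prosbeta1 in Tfb1 RNAi measured 7.08, 1.51 and 6.29 at 0.15 M and 6.67, 5.17 and 4.99 at 1.0 M, and Prosbeta2 6.11, 6.02 and 6.32 and 6.37, 5.5 and 4.65. At 1.0 M Prosbeta5 measured 6.3, 5.11 and 5.1 and Rpn11 4.58, 3.36 and 3.49 in Tfb1 RNAi. Of these, Prosbeta1 alone lay above all controls, with an estimate of 0.35 (limma adjusted p = 0.52). A single subunit was called at 1.0 M without the first control library.

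Rpn9, a lid subunit, had the largest negative estimates in Tfb1 RNAi, -0.88 at 0.15 M and -0.93 at 1.0 M, neither of which passed (limma adjusted p = 0.37 and 0.35). Its values were 5.31, 0.0406 and 4.53 at 0.15 M and 2.14, 0.102 and 3.98 at 1.0 M, so that 1 library in each group was near 0 while the controls read 4.8, 5.31 and 5.15 and 4.94, 2.41 and 4.84. The library at 0.0406 had 6662 genes above 0, beside 9229 and 9596 in its group, and also gave the lowest Prosbeta1 value there. The library at 0.102 had 8598 genes above 0, beside 8643 and 10080. The part of detection in these low values was not tested. The effect of Tfb1 RNAi was not called different between the diets for any subunit (7.12% of genes higher and 1.3% lower), with 1 lower by unadjusted p, beside 526 higher and 153 lower of all genes. The smallest p-values there belonged to Prosalpha1 (estimate -0.42, limma adjusted p = 0.13) and Rpn2 (estimate -0.3, limma adjusted p = 0.23). Prosalpha1 measured 3.87, 3.49 and 3.92 in controls and 4.87, 4.63 and 3.69 in RNAi at 0.15 M, and 4.02, 4.39 and 3.98 and 3.33, 3.79 and 2.91 at 1.0 M. Fat body markers fell with Tfb1 RNAi, from 8000 to 9670 to 3630 to 4470 at 0.15 M and from 2290 to 3630 to 1190 to 1640 at 1.0 M, with 4 of 5 called at each diet. Salivary gland markers went from 2440 to 3220 to 1790 to 2540 at 0.15 M, with 1 of 7 called lower, and from 2340 to 2480 to 1170 to 1740 at 1.0 M, with 5 called lower and 1 higher. The 1 hemocyte marker tested was called higher at both diets, by 0.61 and 1.34. In the difference of the Tfb1 RNAi effect between diets, 1 of 7 salivary gland markers was called higher, by 2.67. The part of these markers in the result was not tested.

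Stat92E is the transcription factor of the fly JAK/STAT pathway. In Stat92E RNAi at 0.7 M, 17 of 29 subunits rose against controls on the same diet and none fell, where 6.7% of 2521 genes rose and 6.35% fell (limma). The median change was 0.36, beside 0.05 for all genes, and 27 of 29 estimates were above 0. In 14 subunits all RNAi libraries lay above all controls, as in 11.2% of all genes. The calls took in 5 of 7 alpha subunits, 3 of 6 beta subunits, 4 of 6 ATPases and 5 of 10 non-ATPase subunits (Rpn3, Rpn7, Rpn11, Rpn12 and Pros54). These classes differ in transcript length, and its part was not tested. The control libraries at 0.7 M also served in the diet comparison and in the other RNAi comparisons, so these results are not independent.

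Pros29, the alpha3 subunit, measured 14, 16.1, 14.9 and 12.7 in controls and 20.9, 20.4, 19.1 and 22.2 in Stat92E RNAi at 0.7 M, a change of 0.49 ± 0.11 (limma adjusted p = 0.0071). Prosbeta7 measured 16.3, 16.6, 16.9 and 13.1 and 24, 20.1, 22.3 and 23.3, a change of 0.49 ± 0.13 (limma adjusted p = 0.019). All RNAi values of both subunits lay above all control values. Prosalpha7 measured 12.1, 14.1, 13.6 and 11 and 18, 15.7, 18 and 20.9, a change of 0.48 ± 0.13 (limma adjusted p = 0.02). Pros28_1 measured 8.45, 13.4, 9.45 and 6.97 and 12.9, 13.9, 12.8 and 14, a change of 0.48 ± 0.15 (limma adjusted p = 0.036), with 1 control library among the RNAi values.

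The catalytic subunits Prosbeta5 and Prosbeta2 rose. Prosbeta5 measured 26.7, 28, 24.3 and 31.4 in Stat92E RNAi, a change of 0.47 ± 0.14 (limma adjusted p = 0.034), and Prosbeta2 measured 11.6, 11.1, 11.6 and 12.4, a change of 0.31 ± 0.1 (limma adjusted p = 0.034). Prosbeta1 measured 14.6, 10.9, 16.2 and 13.8 and its estimate of 0.43 ± 0.16 did not pass (limma adjusted p = 0.07). Rpn11 measured 12.9, 13.1, 13 and 14.1, all above the controls' highest of 10.2, and rose by 0.39 ± 0.1 (limma adjusted p = 0.015). Prosalpha1, which rose most with diet in these controls, had an estimate of 0.31 here that did not pass (limma adjusted p = 0.13).

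The count of 17 rested on single libraries: it was 3 without the fourth control library, 6 without the first and 10 without the third, and 8, 10 and 8 without the first, the second or the fourth Stat92E RNAi library. It was also 10 with no filter on low values. The summed muscle markers were 24.1 to 73.5 in controls and 38.6 to 66.7 in RNAi at 0.7 M, with none of 8 tested called. The fat body markers were 6870 to 10600 and 5560 to 7680, with 3 of 5 called lower, and 1 of 5 salivary gland markers was called lower. Their part in the result was not tested.

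At 0.15 M, Stat92E RNAi raised 1 subunit, where 1.47% of genes rose and 1.63% fell (limma). Prosalpha5 measured 6.83, 5.27, 6.62 and 6.43 in controls and 10.4, 9.72, 9.73 and 9.55 in RNAi, a change of 0.58 ± 0.13 (limma adjusted p = 0.021), with no overlap. Complete separation upwards was seen in 6 subunits and in 12.7% of all genes. The call was lost without the second or the fourth control library or without the first, the third or the fourth RNAi library, and became 2 calls without the second RNAi library. At this diet Prosbeta5 measured 17.5, 19.9, 16.8 and 17.5, Prosbeta1 8.86, 7.6, 9.79 and 11.8, Prosbeta2 9.36, 9.31, 9.53 and 9.18 and Rpn11 8.11, 8.04, 8.99 and 8.59 in Stat92E RNAi, none of them called.

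The test of the difference itself between the diets called no subunit for Stat92E RNAi (0.0397% of genes higher and 0.198% lower), and 4 subunits were higher and none lower by unadjusted p in limma's test, beside 133 higher and 205 lower of all 2521 genes. The smallest p-values belonged to Prosbeta2 (difference 0.32, limma adjusted p = 0.31) and Rpn1 (difference 0.31, limma adjusted p = 0.34). Rpn1 measured 3.97, 4.06, 3.55 and 4.78 in controls and 3.51, 2.69, 3.54 and 3.59 in RNAi at 0.15 M, and 4.11, 3.44, 4.15 and 4.66 and 4.07, 4.73, 4.56 and 4.01 at 0.7 M. The larger number of calls at 0.7 M was thus not shown to be a difference between diets.

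FOXO is the transcription factor that insulin signalling holds out of the nucleus. FOXO RNAi raised 1 subunit at 0.15 M, where 6.58% of genes rose and 10.7% fell (limma). Prosalpha5 in FOXO RNAi measured 9.57, 6.11, 9.71 and 9.83, a change from controls of 0.41 ± 0.13 (limma adjusted p = 0.035), with 1 RNAi library inside the control range. All RNAi libraries lay above all controls in 2 subunits and in 7.93% of all genes. The call was lost with no filter, and 3 subunits were called after rescaling and 3 with the length dependence removed. Rescaling changed all genes called from 166 higher and 270 lower to 229 and 193. Without that library 6 subunits were called and without the third control library 2, and without the second control library or the first, the third or the fourth RNAi library none. Prosbeta5 measured 18.2, 13.9, 18 and 19, Prosbeta1 9.74, 7.23, 10.8 and 10.4, Prosbeta2 8.49, 8.93, 8.13 and 8.61 and Rpn11 8.09, 6.6, 8.42 and 7.4 in FOXO RNAi at this diet. Of these 4, Prosbeta5 had the largest estimate, 0.39 (limma adjusted p = 0.062). Fat body markers were lower, at 6280 to 8160 against 11000 to 11500 in controls, with all 5 called, and salivary gland markers were lower, at 86.8 to 133 against 156 to 562, with all 5 tested called. Gut markers were higher, at 106 to 378 against 4.83 to 115, with 4 of 9 called, and 1 of 8 muscle markers was called lower. Their part in the result was not tested.

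At 0.7 M, FOXO RNAi called no subunit (9.76% of genes rose and 17.0% fell), with 3 higher and 1 lower by unadjusted p in limma's test, beside 320 and 651 of all genes. All RNAi libraries lay above all controls in 2 subunits and in 8.45% of all genes. Prosbeta2 measured 11, 10.9, 11.5 and 11.1 in FOXO RNAi, all above the controls (estimate 0.25, limma adjusted p = 0.052), and Rpn2 measured 5.85, 6.11, 5.98 and 4.58 beside 4.73, 4.18, 4.76 and 4.92 in controls (estimate 0.23, limma adjusted p = 0.068). Prosbeta5 measured 19.1, 15.4, 17.5 and 21.8, Prosbeta1 9.04, 6.78, 9.96 and 10 and Rpn11 9.76, 8.56, 9.17 and 9.86. Leaving out the fourth control or the fourth RNAi library gave 2 calls each, rescaling gave 4 and removing the length dependence 7, all higher. Fat body markers summed to 5440 to 6740 at this diet, against 6870 to 10600 in controls, with 4 of 5 called lower. Gut markers summed to 36.8 to 70.6, against 53.4 to 132, with 3 of 9 called lower, and their part in the result was not tested.

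The FOXO RNAi effect differed between the diets for Prosalpha1 alone, in a comparison where 6.11% of genes were higher and 7.54% lower. Prosalpha1 in FOXO RNAi measured 10.7, 9.72, 10.9 and 10 at 0.15 M, above the controls, and 9.55, 9.45, 9.96 and 14.6 at 0.7 M, where 3 of 4 libraries lay below the controls. The difference was -0.63 ± 0.2 (limma adjusted p = 0.038). It was lost without any of 12 of the 16 libraries, and the number of subunits called was 6 without the second FOXO RNAi library at 0.15 M, 4 without the fourth control library at 0.7 M and 2 without the fourth FOXO RNAi library at 0.7 M. Its genomic copy CG30382 was called as well, with a difference of -0.59 ± 0.19 (limma adjusted p = 0.042), and how reads were split within the pair is uncertain. With no filter or after rescaling no subunit was called, and after removing the length dependence 2 were called, both higher. The difference was also called for 4 of 9 gut markers, all lower, and their part was not tested.

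p53 RNAi called no subunit at 0.15 M (1.11% of genes rose and 1.03% fell) or at 0.7 M (4.6% rose and 7.74% fell). By unadjusted p in limma's test, 4 subunits were higher at 0.15 M and 9 at 0.7 M, and none was lower. Over all genes these counts were 214 higher and 216 lower at 0.15 M, and 298 higher and 423 lower at 0.7 M. RNAi lay wholly above controls in 1 subunit and 8.96% of all genes at 0.15 M, and in 4 subunits and 6.15% of all genes at 0.7 M. At 0.15 M the smallest p-values belonged to Prosbeta3, with 5.51, 12.4 and 7.82 in RNAi (estimate 0.55, limma adjusted p = 0.22), and Pros29, with 12.7, 14.4 and 10.2 (estimate 0.29, limma adjusted p = 0.22). At 0.7 M they belonged to Prosbeta5, with 26, 26.7, 23.8 and 27.3 (estimate 0.39, limma adjusted p = 0.077), and Pros28_1, with 12.2, 12.4, 12.3 and 13.6 (estimate 0.4, limma adjusted p = 0.077). Without the second control library at 0.7 M, 6 subunits were called there. The median change at 0.7 M was 0.19, beside 0.01 for all genes. Fat body markers summed to 4770 to 5970, against 6870 to 10600 in controls, with 4 of 5 called lower, and 1 of 5 salivary gland markers was called lower. At 0.15 M, 1 of 9 gut markers and 1 of 2 hemocyte markers were called higher. Their part in the result was not tested.

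In p53 RNAi at 0.7 M, Prosbeta1 measured 13.3, 10.7, 13.8 and 13.2, Prosbeta2 10.3, 10.9, 9.76 and 11.5 and Rpn11 11.4, 11.4, 11.5 and 12.3. At 0.15 M, Prosbeta5 measured 15.4, 17.6 and 11.7, Prosbeta1 9.81, 11.3 and 8.74, Prosbeta2 9.1, 10.9 and 7.21 and Rpn11 8.15, 9.36 and 6.81. The effect did not pass as different between the diets for any subunit (0.119% of genes higher and 0.159% lower), and none had an unadjusted p under 0.05 in limma's test, beside 49 higher and 86 lower of all genes.

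**Figure D5:**
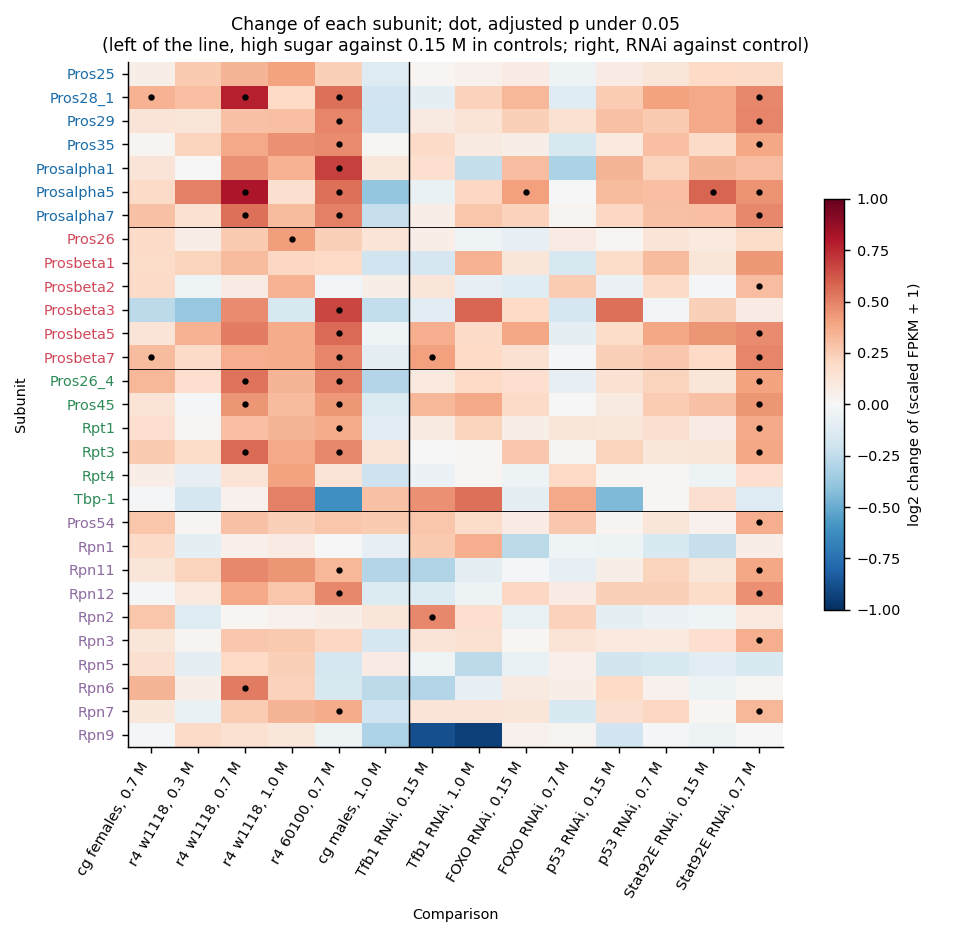
Change of each of the 29 subunits (log2 of scaled FPKM plus 1) in 14 comparisons, high sugar against 0.15 M in controls left of the vertical line and RNAi against control right of it; a dot marks an adjusted p under 0.05. Dots gather in r4 60100 females at 0.7 M (16) and in Stat92E RNAi at 0.7 M (17), and no lower value carries a dot.

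The subunit genes outside the naming pattern, 5 in number, were called in part of these comparisons. In r4 60100 controls at 0.7 M, Mov34 (0.42 ± 0.11, limma adjusted p = 0.0061), CG30382 (0.67 ± 0.14, limma adjusted p = 0.00099) and CG17331 (0.25 ± 0.09, limma adjusted p = 0.04) rose, and in Stat92E RNAi at 0.7 M Mov34 (0.44) and CG17331 (0.28) rose. In r4 w1118 controls CG13779, a small lid subunit, rose by 0.91 ± 0.15 at 0.7 M (limma adjusted p = 0.0037), from a mean of 10.5 to 20.6. The ubiquitin receptor CG13349 rose by 0.44 ± 0.12 at 1.0 M (limma adjusted p = 0.035). None of the 5 was called in cg males or cg females.

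Of 7 tested regulators and associated factors, only CG12082 (Usp5, which takes apart free ubiquitin chains) rose in r4 60100 controls at 0.7 M, by 0.45 ± 0.09 (limma adjusted p = 0.00058). In FOXO RNAi at 0.15 M CG12082 rose by 0.28, and in FOXO RNAi at 0.7 M CG9588 was called lower by 0.72 (limma adjusted p = 0.013), with RNAi libraries at 0.0075, 1.3, 1.47 and 2.49 and controls at 2.38, 3.1, 2.74 and 1.8, so that 1 RNAi library was near 0 and 1 lay inside the control range. In Stat92E RNAi at 0.7 M CG12082 (0.28) and the ubiquitin hydrolase Uch-L3 (0.26) rose. In r4 w1118 controls at 0.7 M only maf-S of 6 rose, by 1.12 ± 0.29 (limma adjusted p = 0.029). None of the 6 was called at 0.3 M or 1.0 M. The product of maf-S is the partner of cnc, the factor known to induce proteasome genes in flies and mammals. Its part in the change of the subunits was not tested. The deubiquitinase CG5384 (Usp14) fell in Tfb1 RNAi, by 0.81 at 0.15 M and by 0.62 at 1.0 M, where the ubiquitin receptor Ubqn rose by 0.3.

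Genes that supply and attach ubiquitin moved in both directions. In r4 60100 controls at 0.7 M, none of 9 tested rose and 4 fell: the conjugating enzymes ben (-0.8 ± 0.15, limma adjusted p = 0.00038) and eff (-0.63 ± 0.13, limma adjusted p = 0.00089), the activating enzyme Uba1 (-0.34) and RpS27A, a ubiquitin precursor (-0.32). In cg females 3 of 11 fell, among them ben (-0.73 ± 0.14, limma adjusted p = 0.009), and 2 rose, among them RpS27A (0.49). In the male diet comparison 1 of 12 fell, the polyubiquitin gene Ubi-p5E (-0.43). In Tfb1 RNAi the conjugating enzyme UbcD6 rose by 0.83 ± 0.12 at 0.15 M (limma adjusted p = 0.00034) and by 0.91 ± 0.12 at 1.0 M (limma adjusted p = 0.00035), and Uba1 rose by 0.68 and 0.55, while RpS27A fell by 0.66 at 0.15 M and UbcD2 rose by 0.34 at 1.0 M. In FOXO RNAi at 0.7 M Uba1 rose by 0.48 ± 0.13 (limma adjusted p = 0.0061), and in Stat92E RNAi at 0.15 M RpS27A rose by 0.37 ± 0.09 (limma adjusted p = 0.028). Of the segregase genes, p47 (0.93 ± 0.25, limma adjusted p = 0.0083) and Ufd1-like (0.24 ± 0.08, limma adjusted p = 0.021) rose in r4 60100 controls at 0.7 M. In r4 w1118 controls at 0.7 M, Ufd1-like (1.81 ± 0.32, limma adjusted p = 0.005) and the ATPase TER94 (0.41 ± 0.12, limma adjusted p = 0.043) rose. The means of Ufd1-like were 0.00694 at 0.15 M and 2.55 at 0.7 M. Its 0.15 M level was near 0, so it passed the filter only through the other diets, and its call carries that limit.

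Other complexes were set beside the subunits by counts and medians. In r4 60100 controls at 0.7 M, 8 of 80 tested cytosolic ribosomal protein genes rose and 3 fell (median 0.32), 2 of 6 genes of the COP9 signalosome rose (median -0.03), and none of the 8 genes of the TCP-1 chaperonin ring rose and 1 fell (median 0.01). In Stat92E RNAi at 0.7 M all 8 TCP-1 ring genes rose (median 0.39), 1 of 80 ribosomal protein genes rose (median 0.27) and no COP9 gene did. All 8 TCP-1 ring genes also rose in p53 RNAi at 0.7 M (median 0.38), where no proteasome subunit was called. In r4 w1118 controls at 0.7 M, 13 of 80 ribosomal protein genes rose (median 0.37) and no TCP-1 ring gene was called (median -0.33). In cg females 33 of 80 ribosomal protein genes rose (median 0.36), and in Tfb1 RNAi at 0.15 M 55 of 83 fell (median -0.51), beside 2 and 2 subunits called higher.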

How the data were processed

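Total RNA of fat bodies was depleted of ribosomal RNA and sequenced, per the labels' protocols. The submitters' processing notes name TopHat 1.3.2, Bowtie 0.12.7, Cufflinks 1.1.0 and the dm3 genome build, with no settings. The authors deposited FPKM values for 14659 genes in 61 columns. The values show a scaling that places the value 1 at a fixed rank, which the labels do not describe, so depth is unknown and no counting interval was made. Headings named 18 columns by sample title and 43 by group only; library numbers in the latter are names. The male headings carry r4, and the labels' cg-GAL4 was followed. The p53 RNAi headings at 0.15 M are written in the style of the male headings, unlike those of their controls. One p53 RNAi sample at 0.15 M was not analysed here.

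Each of 19 comparisons was fitted with limma 3.58.1 (R 4.3.3) on log2(scaled FPKM + 1), within 1 experiment, with all its groups sharing the spread, a mean-variance trend and genes with a mean of at least 1. Fold changes on this scale understate changes of low genes. Benjamini-Hochberg adjustment covered all tested genes, and calls used 0.05. The fit was tested on simulated data. Labels do not say that libraries came from separate animals, so p-values measure only the spread between libraries. Alternatives were another pseudocount, no filter, no trend, a rescaling, the replicate block, each library left out and a length correction. Named in each comparison were up to 4 called subunits by size of change (the 2 smallest p-values where none was called), the 3 catalytic subunits and Rpn11, and up to 3 called genes of each pathway list. Members and lists were chosen with earlier results of these data known, and the testis list after the paralogs' values. Promoter, protein and genome sequences were not used here. Apart from genes the rule leaves unnamed, 1 called gene of the ubiquitin list is not reported here.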

Additional observations from a re-analysis of the deposited data

Results flagged for a closer look

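In the 91 groups of 4 libraries tested over the 13 named subunits, 14 held a library apart from the other 3 by Dixon's criterion. Only r4 60100 females have groups of 4, so no other experiment could be tested. Chance gives about 1 in 20 groups, but the subunits share libraries and vary together (median r 0.66), so the 14 are not independent. The values given are those of the library that stood apart. In FOXO RNAi at 0.15 M 1 low library read 6.04 for Pros28_1, 10.1 for Pros29, 6.11 for Prosalpha5 and 9.59 for Prosbeta7. In controls, a low library read 4.86 for Pros28_1 at 0.15 M and 13.1 for Prosbeta7 at 0.7 M, and a high library read 11.5 for Pros29 at 0.15 M. In FOXO RNAi at 0.7 M a high library read 14.6 for Prosalpha1. In p53 RNAi at 0.7 M a high library read 13.6 for Pros28_1 and 12.3 for Rpn11, and a library read 13 for Prosalpha5. In Stat92E RNAi a library stood apart at 0.15 M with 10.4 for Prosbeta3 and 2.69 for Rpn1, and at 0.7 M with 14.1 for Rpn11.

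The effect of FOXO RNAi on Prosalpha1 differed between 0.7 M and 0.15 M sucrose by -0.63 on the log2 scale in limma's test of the difference (adjusted p = 0.038). The controls' means were 8.17 at 0.15 M and 13.8 at 0.7 M, and the library at 14.6 is 1 of the 4 FOXO RNAi libraries at 0.7 M. Without it 2 subunits were called in this comparison.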

How the results depend on the processing

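Counts below are subunits called, with the count as reported in brackets. The cause of each shift was not tested. Removing the dependence of changes on transcript length, an alternative chosen after seeing the data, gave 1 for the male diet (0), 6 for Tfb1 RNAi at 0.15 M (2) and 1 at 1.0 M (0), 0 for cg females (2), and 2, 0 and 0 for r4 w1118 females at 0.7 M (7), at 1.0 M (1) and in the trend (3). It gave 3 and 7 for FOXO RNAi at 0.15 M (1) and 0.7 M (0), 2 higher for the FOXO RNAi difference between diets (1 lower), 2 for p53 RNAi at 0.7 M (0), and an estimate of -0.05 for Pros25 at 0.3 M (0.26). Rescaling by the median ratio gave 4 for Tfb1 RNAi at 0.15 M, of which 1 lower, 0 for cg females, 2 for r4 w1118 females at 1.0 M, 3, 4 and 0 for FOXO RNAi at 0.15 M, at 0.7 M and in the difference, and 2 for Stat92E RNAi at 0.15 M (1). It shifted the zero of the r4 60100 diet comparison by 0.15 on the log2 scale. No filter gave 0 for cg females, for FOXO RNAi at 0.15 M and for its difference, 2 for Stat92E RNAi at 0.15 M and 10 at 0.7 M (17). limma without trend gave 1 for FOXO RNAi at 0.7 M and 2 for Stat92E RNAi at 0.15 M. A pseudocount of 0.1 moved no count by over 1.5 times.

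All genes called higher and lower moved under rescaling from 166 and 270 to 229 and 193 for FOXO RNAi at 0.15 M, from 246 and 429 to 300 and 279 at 0.7 M, from 154 and 190 to 158 and 123 in its difference, from 28 and 26 to 29 and 12 for p53 RNAi at 0.15 M, and from 37 and 41 to 47 and 25 for Stat92E RNAi at 0.15 M.

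Leaving out 1 library at a time gave 0 to 1 for the male diet, 1 to 3 and 0 to 1 for Tfb1 RNAi at 0.15 M and 1.0 M, 0 to 1 for cg females, 0 to 0, 1 to 6, 0 to 2 and 0 to 2 for r4 w1118 females at 0.3 M, 0.7 M, 1.0 M and in the trend, and 14 to 20 for the r4 60100 diet. It gave 0 to 6, 0 to 2 and 0 to 6 for FOXO RNAi at 0.15 M, 0.7 M and in the difference, 0 to 6 for p53 RNAi at 0.7 M, 0 to 2 and 3 to 15 for Stat92E RNAi at 0.15 M and 0.7 M, and 0 in the other comparisons. For the 41 changes of single named subunits, the alternatives that kept all libraries gave 28 values that lost the threshold, 9 that gained it, 187 on the same side and 1 of opposite sign. With 1 library left out at a time, 94 values lost the threshold, 6 gained it and 254 stayed on the same side.

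Replicate numbers showed no clear pairing of the libraries. Same-numbered libraries had a median residual correlation of -0.041 in cg females, 0.024 in cg males and -0.002 in r4 w1118 females. In the same order, 0 of 6, 5 of 12 and 7 of 12 libraries correlated best with their own number. In r4 w1118 females same-numbered pairs reached at most 0.373 and other pairs 0.218, so some pairing there remains possible. With the replicate block the counts were 5 for Tfb1 RNAi at 0.15 M (1 of them lower), 1 at 1.0 M, 0 for cg females, and 0 for r4 w1118 females at 1.0 M and in the trend. Of the r4 60100 columns, only those of p53 RNAi at 0.15 M carry replicate numbers, so no block could be fitted there.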
